A study of Mus musculus with 26 samples.

Results

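The expression of 9 genes of the red cell programme was followed across RNA-seq libraries of mouse myeloid progenitors and cultured mast cells. They were Car1 and Car2, Hba-a1, Hbb-bt and Hbb-bs, Epor, Slc14a1, Rhag and Ermap, taken by symbol and mapped to the Ensembl gene identifiers of the deposited files, which gave 9 of 52636 genes. No measured value entered this rule, although the members were chosen with earlier results of these data known. The study asked whether NSP4, a neutrophil serine protease encoded by Prss57, shapes gene expression in granulocyte-macrophage progenitors (GMPs) and in bone marrow-derived mast cells (BMMCs). The 26 libraries fell into 6 groups: 4 libraries each of wild-type GMPs, Prss57-/- GMPs, wild-type common myeloid progenitors (CMPs) and Prss57-/- CMPs, and 5 libraries each of wild-type and Prss57-/- BMMCs. Prss57-/- mice carried a germline deletion of the second exon of Prss57, made in C57BL/6N embryonic stem cells, and wild-type littermates of matched age, which the sources used here do not give, served as controls. The study calls its replicates biological, while the labels only number them and do not tie CMPs and GMPs of the same number to one animal. GMPs and CMPs were sorted from bone marrow of female mice as cells without lineage markers or SCA-1 and with CD117 and CD34, and were split by their CD16/32 staining, high in GMPs and low in CMPs. The lineage cocktail included Ter119, a surface marker of maturing red cells, so erythroid cells past that stage were gated out. BMMCs came from male mice, were grown from sorted GMPs in IL-3 and SCF, and were sequenced in another run, so that a difference between BMMCs and GMPs cannot be told apart from sex, run or culture.

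CMPs are a mixed gate that holds cells able to form red cells, megakaryocytes, granulocytes and macrophages, whereas most GMPs have left the erythroid path. Commitment to the red cell lineage is driven by GATA1 with TAL1 and KLF1, which act on GATA, E-box and CACCC sequences of erythroid promoters and enhancers. Early erythroid progenitors first express the erythropoietin receptor and carbonic anhydrases, and haemoglobin chains accumulate later, as the cells mature.

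Promoter windows were looked up for the members, since 6 of the 9 were called lower in GMPs than in CMPs in both genotypes. Over all genes tested, 6.53% in wild-type and 4.38% in Prss57-/- cells were called lower. A further reason was that the pair of beta-globin genes did not move together in BMMCs. Windows from the RefSeq table of mouse promoters (GRCm38.p6) were read for 6 of the 9 members. Each window had 300 bases, from 250 before to 50 after the start of transcription. None was read for Car1, Car2 and Slc14a1, so their promoters were not examined. The stretches below run 5′ to 3′ on the strand of the gene from the beginning of each window to the RefSeq start or to the first annotated exon, whichever came first. Capitals mark a GATA motif (the letters GATA with A or T before and A or G after, on either strand) or a CACCC box (CCNCNCCC, on either strand), and overlapping matches run together.
Hba-a1, chr11:32283422-32283510, plus strand: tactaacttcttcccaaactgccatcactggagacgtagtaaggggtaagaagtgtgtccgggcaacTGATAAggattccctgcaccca
Hbb-bs, chr7:103828097-103828178, minus strand: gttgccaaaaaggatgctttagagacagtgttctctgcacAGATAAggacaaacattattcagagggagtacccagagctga
Hbb-bt, chr7:103813997-103814173, minus strand: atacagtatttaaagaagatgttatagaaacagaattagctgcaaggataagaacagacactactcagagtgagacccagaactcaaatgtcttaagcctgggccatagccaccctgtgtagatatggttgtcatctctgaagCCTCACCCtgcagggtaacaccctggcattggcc
Epor, chr9:21963577-21963826, minus strand: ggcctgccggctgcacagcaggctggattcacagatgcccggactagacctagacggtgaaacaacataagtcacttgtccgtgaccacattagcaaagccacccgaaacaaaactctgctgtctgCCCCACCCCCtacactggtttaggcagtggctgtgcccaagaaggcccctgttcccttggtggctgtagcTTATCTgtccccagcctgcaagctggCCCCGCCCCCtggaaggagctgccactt
Rhag, chr17:40810899-40811125, plus strand: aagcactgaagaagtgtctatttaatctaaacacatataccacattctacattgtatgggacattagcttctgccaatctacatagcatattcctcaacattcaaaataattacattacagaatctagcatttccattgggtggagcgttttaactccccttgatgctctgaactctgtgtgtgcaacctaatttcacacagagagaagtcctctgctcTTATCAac
Ermap, chr4:119190012-119190245, minus strand: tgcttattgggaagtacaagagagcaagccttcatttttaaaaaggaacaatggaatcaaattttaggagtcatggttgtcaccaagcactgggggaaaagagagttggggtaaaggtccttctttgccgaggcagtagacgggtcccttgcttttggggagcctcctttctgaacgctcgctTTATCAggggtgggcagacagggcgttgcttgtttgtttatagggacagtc

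A GATA motif lay in 5 of these 6 windows, the exception being Hbb-bt, and 29.8% of the 32851 promoter windows in the RefSeq table held one. A CACCC box lay in the windows of Hbb-bt, Hbb-bs and Epor, 3 of 6, against 49.5% of all windows. An E-box (CANNTG) lay in 4 of 6 windows, against 72.3% of all windows. The CACCC box of Hbb-bs fell within an exon of another annotated transcript, so only 30 bases around it are given beside the same stretch of Hbb-bt.
Hbb-bs, chr7:103828003-103828032, minus strand: attccgtagagCCACACCCtggtaagggcc
Hbb-bt, chr7:103814012-103814041, minus strand: catctctgaagCCTCACCCtgcagggtaac

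The globin genes are near copies of one another, which bears on every globin value here because only uniquely aligned reads were counted. In the GENCODE M21 transcripts the coding sequences of Hbb-bs and Hbb-bt, both of 444 bases, differed at 1 position, C417T, counted from the first base of the start codon with the Hbb-bs base first. The stretch from coding position 402 to 431 is given for each, with the differing base in capitals.
Hbb-bs: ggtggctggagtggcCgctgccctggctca
Hbb-bt: ggtggctggagtggcTgctgccctggctca

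Of the windows of 50 bases, the read length, along the main transcript, 34.2% in Hbb-bs, 41.7% in Hbb-bt and 32.5% in Hba-a1 occurred in no transcript of another gene, the rest being shared with Hbb-bt, Hbb-bs and Hba-a2, respectively. Most of these distinguishing windows reached into untranslated sequence: 170 of 198 in Hbb-bs and 245 of 273 in Hbb-bt. The other 6 members were distinguishable along most of their length, from 85.5% of windows in Car1, which shares sequence with Gm5843, to 100% in Car2, Epor and Slc14a1. The unique counts of the globin genes, and their levels per length, therefore cover part of each transcript and understate the globins relative to the other members.

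Between 32078404 and 53264762 reads per library fell on genes in CMPs, between 35501671 and 51497962 in GMPs and between 18627626 and 28647216 in BMMCs. Prss57, the deleted gene, had 2261 to 3926 reads in wild-type CMPs and 1 in each Prss57-/- CMP library, and 18064 to 26556 reads in wild-type GMPs against 6 to 25 in Prss57-/- GMPs, which matched the labels. Wild-type BMMCs held 2 to 27 Prss57 reads, and Prss57-/- BMMCs none. One Prss57-/- CMP library (replicate 2) stood apart, with 8.02% of its reads on ribosomal protein genes against 2.44 to 4.78% in the other 7 CMP libraries. One Prss57-/- BMMC library (replicate 3) had a median correlation with its group of 0.923, against 0.991 to 0.995 in the other 9 BMMC libraries. Of the defining markers, the mast cell list summed to 30700 to 84230 CPM (counts scaled to the library total) in BMMCs, 455 to 844 in GMPs and 123 to 202 in CMPs, and the granulocyte-macrophage progenitor list to 56260 to 66510 CPM in GMPs and 8812 to 19274 in CMPs. BMMCs also held macrophage and dendritic cell and megakaryocyte markers, whose values stand beside the BMMC results. Levels below are nRPKM, the RPKM values adjusted by a size factor that the authors deposited, and fold changes come from edgeR on the deposited counts. A gene was called at an adjusted p under 0.01 with a fold change of at least 2.

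In both genotypes the carbonic anhydrases, the erythropoietin receptor and the red cell membrane proteins were expressed in CMPs and were 13.8 to 29.2 times lower in GMPs. The 9 members took 0.200 to 0.351% of all reads in CMPs, 0.00876 to 0.0181% in GMPs and 0.00228 to 0.00456% in BMMCs. Car1 and Car2 weighed most in these shares in CMPs, with means of 1145 CPM each in wild-type cells, where Slc14a1, the next, had 224. In wild-type BMMCs Car2 had a mean of 32.9 CPM, and Hbb-bt, the next, 2.88. In wild-type cells 6 of the 9 members were called lower in GMPs than in CMPs, where 6.53% of the 14967 genes tested were called lower. In Prss57-/- cells 8 of 9 were called lower, where 4.38% of 14959 genes were. The median log2 fold change of the members was -4.01 in wild-type and -3.83 in Prss57-/- cells, against -0.02 and -0.03 over all genes tested. In bulk RNA, fewer erythroid cells and less erythroid RNA in each cell cannot be told apart.

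**Figure D1:**
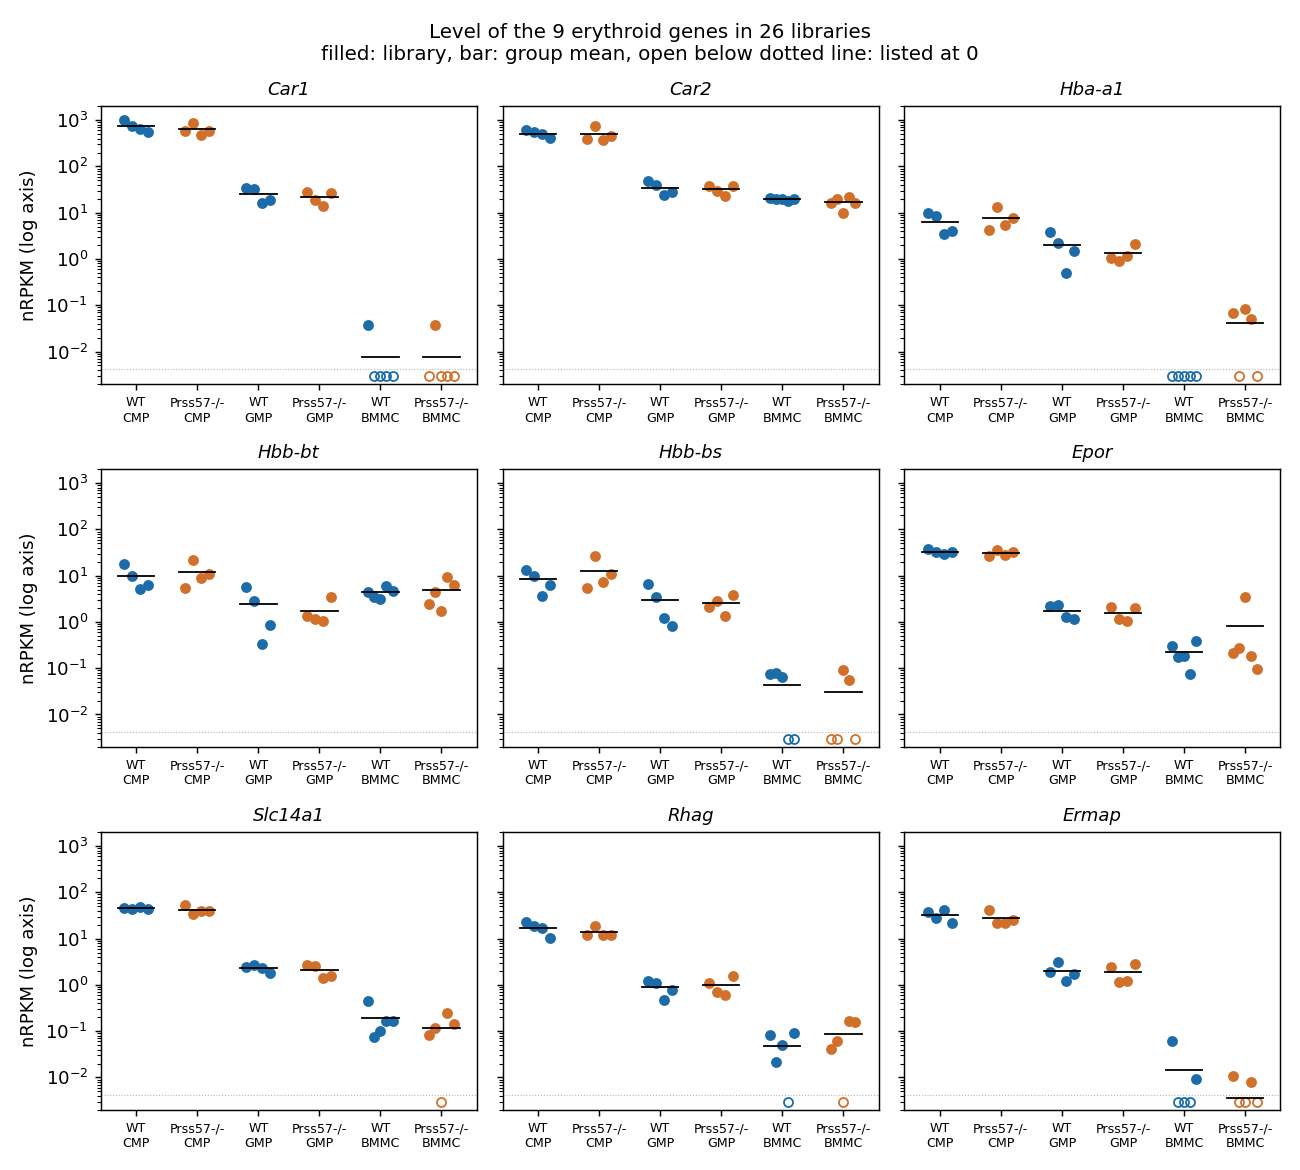
Level of each of the 9 genes in nRPKM on a log axis, by group, with 1 filled point per library, a bar at the group mean and open points at the bottom for libraries listed at 0. CMP libraries sit above GMP libraries for 9 of 9 genes in Prss57-/- cells. In wild-type cells they do so for 6 of 9, and the globins overlap. How often this holds over all genes was not counted, so these counts have no background. Hbb-bt is the one gene whose mean in BMMCs is not below that in GMPs.

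Car1 and Car2 encode cytosolic carbonic anhydrases, which interconvert carbon dioxide and bicarbonate. They lie close together on chromosome 3, Car1 at chr3:14766216-14808368 on the minus strand and Car2 at chr3:14886273-14900770 on the plus strand. Car1 overlaps Gm16399 on the same strand, a gene with at most 31 reads in a library. Car1 had the highest mean level in CMPs, at 1012, 756, 642 and 551 nRPKM in the 4 wild-type libraries and 594, 868, 483 and 573 in the 4 Prss57-/- libraries. In GMPs it stood at 35.0, 31.8, 15.9 and 18.9 nRPKM in wild-type and 28.1, 18.4, 14.2 and 27.1 in Prss57-/- cells. Every GMP library lay below every CMP library, and the mean in GMPs was 3.43% of that in CMPs in wild-type and 3.49% in Prss57-/- cells. The log2 fold change was -4.85 (SE 0.31, adjusted p = 2.50e-06) in wild-type and -4.79 (SE 0.30, adjusted p = 3.88e-05) in Prss57-/- cells.

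Car2 was measured at 608, 545, 492 and 415 nRPKM in wild-type and 392, 743, 378 and 456 in Prss57-/- CMPs. GMPs held 47.9, 38.8, 23.7 and 27.5 nRPKM in wild-type and 37.8, 29.96, 23.0 and 37.9 in Prss57-/- cells. Its groups did not overlap either, and its log2 fold change was -3.88 in both genotypes (SE 0.24, adjusted p = 1.92e-06 in wild-type and SE 0.28, adjusted p = 6.41e-05 in Prss57-/- cells). Within a library Car1 lay above Car2 in 8 of 8 CMP libraries and below it in 8 of 8 GMP libraries, an order seen in the values and not tested.

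Epor, the receptor through which erythropoietin keeps erythroid progenitors alive, lies at chr9:21958897-21963506 on the minus strand. It was measured at 38.5, 31.9, 29.4 and 31.7 nRPKM in wild-type CMPs and at 26.1, 35.7, 28.5 and 33.0 in Prss57-/- CMPs. GMPs held 2.22, 2.28, 1.29 and 1.14 nRPKM in wild-type and 2.15, 1.17, 1.07 and 1.97 in Prss57-/- cells, all below the CMP libraries. It fell by 4.23 on the log2 scale in both genotypes (SE 0.24, adjusted p = 1.45e-06 in wild-type and SE 0.27, adjusted p = 4.05e-05 in Prss57-/- cells).

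Slc14a1, Rhag and Ermap encode surface proteins of the red cell. Slc14a1 is the urea transporter that carries the Kidd antigens, Rhag is the Rh-associated glycoprotein that anchors the Rh complex and passes ammonia, and Ermap is the erythroid membrane-associated protein that carries the Scianna antigens. Slc14a1 stood in wild-type CMPs at 45.4, 44.0, 47.3 and 43.2 nRPKM, a coefficient of variation of 4.01% against 11.9 to 57.1% in the other members. In Prss57-/- CMPs it stood at 54.5, 34.5, 39.6 and 39.3, with 20.6% against 14.1 to 79.4% in the other members. In GMPs it was at 2.33 ± 0.395 nRPKM in wild-type and 2.09 ± 0.696 in Prss57-/- cells (SD, n = 4 each), and its log2 fold changes were -4.26 (SE 0.15, adjusted p = 2.16e-07) and -4.29 (SE 0.29, adjusted p = 4.71e-05). No GMP library reached the range of the CMP libraries.

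Rhag, at chr17:40811126-40840754 on the plus strand, had the lowest mean of the membrane proteins, with 23.0, 18.7, 17.0 and 10.3 nRPKM in wild-type and 12.0, 19.0, 12.1 and 12.0 in Prss57-/- CMPs. Its GMP libraries lay between 0.473 and 1.22 nRPKM in wild-type and between 0.613 and 1.60 in Prss57-/- cells. The log2 fold change was -4.25 (SE 0.33, adjusted p = 7.94e-06) and -3.74 (SE 0.33, adjusted p = 0.000149). The value of 19.0 nRPKM belonged to replicate 2, the library with the high ribosomal protein share, whose deposited nRPKM was scaled up relative to CPM, at 0.639 nRPKM per CPM for Car2 against 0.417 to 0.476 in the other 7 CMP libraries. In CPM, Rhag stood at 38.9 there and at 32.9 to 37.5 in the other Prss57-/- CMP libraries.

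Ermap, at chr4:119175457-119190011 on the minus strand, was measured at 37.0, 28.1, 41.9 and 22.1 nRPKM in wild-type and 41.5, 21.5, 21.8 and 25.8 in Prss57-/- cells. GMPs held 1.91, 3.06, 1.19 and 1.73 nRPKM in wild-type and 2.39, 1.16, 1.22 and 2.82 in Prss57-/- cells. The groups stood clear of each other, with log2 fold changes of -4.01 (SE 0.31, adjusted p = 7.28e-06) and -3.83 (SE 0.38, adjusted p = 0.000227).

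**Figure D2:**
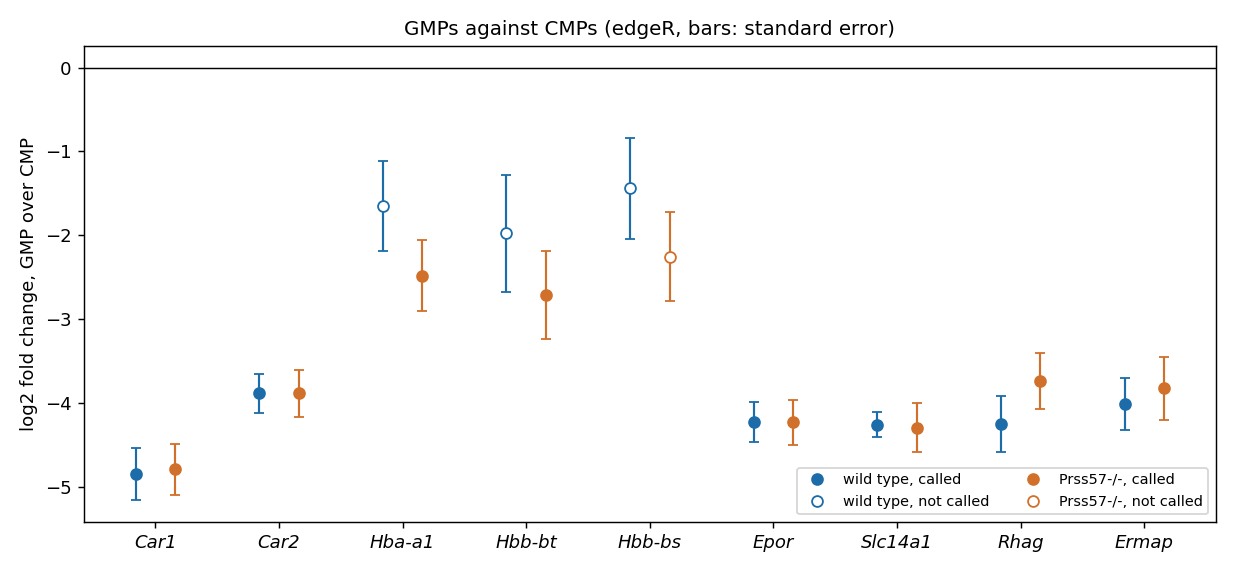
Log2 fold change of GMPs over CMPs for each gene in wild-type (blue) and Prss57-/- (orange) cells, with bars of 1 standard error from edgeR, filled where called. The 6 genes that are not globins sit between -4.85 and -3.74, and the globins between -2.71 and -1.44 with wider bars.

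The globins encode the chains of haemoglobin, Hba-a1 the alpha chain and Hbb-bs and Hbb-bt the adult beta chains. Hba-a1 lies at chr11:32283511-32284465 on the plus strand, and Hbb-bs at chr7:103826534-103828096 and Hbb-bt at chr7:103812524-103813996, both on the minus strand. Their mean levels in CMPs, 6.40 to 12.6 nRPKM, were below those of the other members in both genotypes. Only 32.5 to 41.7% of the windows of each globin are its own, which understates these levels, so the order is not settled. In CMPs Hba-a1 was measured at 9.91, 8.29, 3.41 and 3.97 nRPKM in wild-type and at 4.27, 13.4, 5.42 and 7.63 in Prss57-/- libraries. In GMPs it stood at 3.80, 2.27, 0.508 and 1.47 nRPKM in wild-type and at 1.04, 0.921, 1.18 and 2.15 in Prss57-/- cells. The wild-type ranges overlapped, through GMP replicate 1, and the Prss57-/- ranges did not.

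Hbb-bt had 17.5, 9.93, 5.17 and 6.39 nRPKM in wild-type CMPs and 5.80, 2.80, 0.337 and 0.876 in wild-type GMPs. In Prss57-/- cells it had 5.31, 22.0, 8.86 and 10.8 nRPKM in CMPs and 1.34, 1.13, 1.03 and 3.39 in GMPs. The spread within wild-type GMPs was wide, from 12 to 192 reads, and the wild-type CMP and GMP ranges overlapped. Hbb-bs had 13.3, 10.1, 3.57 and 6.29 nRPKM in wild-type CMPs against 6.59, 3.44, 1.23 and 0.802 in wild-type GMPs, and these ranges overlapped too. In Prss57-/- cells it had 5.29, 27.2, 7.25 and 10.6 nRPKM in CMPs against 2.08, 2.77, 1.32 and 3.88 in GMPs, and the ranges of Hbb-bt and Hbb-bs did not overlap there.

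None of the 3 globins was called in wild-type cells, where the log2 fold change was -1.65 for Hba-a1 (SE 0.54, adjusted p = 0.0340), -1.98 for Hbb-bt (SE 0.70, adjusted p = 0.0471) and -1.44 for Hbb-bs (SE 0.61, adjusted p = 0.0838). In Prss57-/- cells Hba-a1 (-2.48, SE 0.42, adjusted p = 0.00324) and Hbb-bt (-2.71, SE 0.52, adjusted p = 0.00613) were called and Hbb-bs was not (-2.26, SE 0.53, adjusted p = 0.0165). GMP means of the globins were 14.7 to 36.4% of the CMP means, against 3.43 to 7.24% for the other 6 members, a contrast that was seen in the values and was not tested. The globin calls hung on single libraries. Without wild-type GMP replicate 1 all 9 members were called in wild-type cells, with log2 fold changes of -2.12 for Hba-a1, -2.81 for Hbb-bt and -2.13 for Hbb-bs. The count of all genes called lower rose too, from 978 of 14967 with all libraries to 1302 of 15339. Wild-type GMP replicate 1 stood apart among the GMPs, with 3.42% of its reads on ribosomal protein genes against 1.70 to 3.16% in the other 7. Its median correlation with its group was 0.984 against 0.990 to 0.995. Prss57-/- GMP replicate 4, at 3.16%, was likewise the highest Prss57-/- GMP library for each globin, and the part of this share in the globin values was not tested. Without Prss57-/- GMP replicate 1, 2 or 3, or without Prss57-/- CMP replicate 4, 6 members were called in Prss57-/- cells and none of the globins. Over all genes, 408 to 475 were called lower in those fits, against 655 of 14959 with all libraries. Without Prss57-/- CMP replicate 3 the count of members was 7, with 446 of 15207 genes called lower. Without Prss57-/- CMP replicate 1 it was 9, with 1141 of 15204 genes called lower.

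Between genotypes no member differed beyond the spread of its libraries. No member was called between Prss57-/- and wild-type cells in CMPs, where 0.00670% of 14916 genes were called, in GMPs, where 0.00681% of 14689 were, or in BMMCs, where 0% of 13938 were. The 1 gene called in CMPs and in GMPs was Prss57 itself. In CMPs the log2 fold changes of the members ran from -0.35 (Rhag, SE 0.26) to 0.56 (Hbb-bs, SE 0.55), 6 below 0 and 3 above. In GMPs they ran from -0.61 (Hba-a1, SE 0.53) to 0.15 (Rhag, SE 0.37), 8 below 0 and 1 above. Every adjusted p was 0.9999, and 0 members reached an unadjusted p under 0.05 in edgeR or were called by limma or DESeq2. Over all genes, 76 in CMPs, 119 in GMPs and 332 in BMMCs had an unadjusted p under 0.05 in edgeR.

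**Figure D3:**
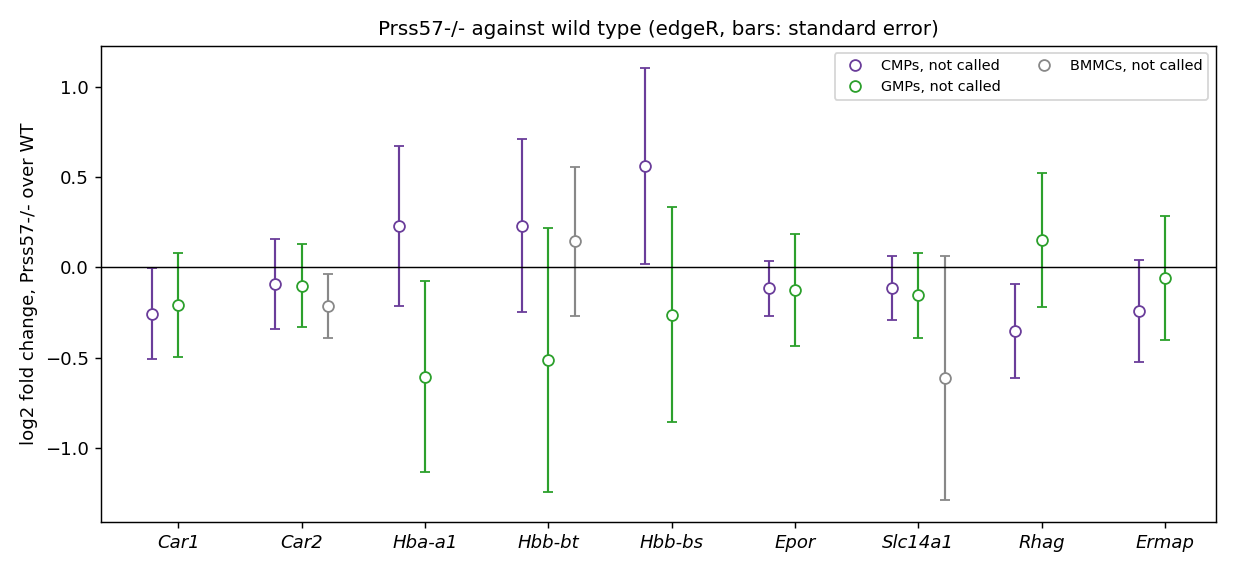
Log2 fold change of Prss57-/- over wild-type cells for each gene in CMPs (purple), GMPs (green) and BMMCs (grey, where 3 genes passed the filter), with bars of 1 standard error from edgeR, all open because none was called. The bar of Epor in CMPs spans an SE of 0.15, and those of the globins in GMPs 0.53 to 0.73.

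The precision differed by member. For Epor in CMPs the log2 fold change was -0.12 with an SE of 0.15, and for Slc14a1 it was -0.12 with an SE of 0.18, whereas the globins had SEs of 0.44 to 0.55 in CMPs and 0.53 to 0.73 in GMPs. The direction of the globins differed between the cell types, with Hba-a1 at 0.23 in CMPs and -0.61 in GMPs, Hbb-bt at 0.23 and -0.51 and Hbb-bs at 0.56 and -0.26, none of them called. Most of these directions turned when a single library was left out. Without Prss57-/- CMP replicate 2 the CMP values were -0.17, -0.25 and -0.12, in the same order. Without wild-type GMP replicate 1 the GMP values were -0.10, 0.35 and 0.46, so Hba-a1 kept its sign in GMPs. The interaction of genotype and cell type, which tests whether the drop from CMPs to GMPs differed between genotypes, called no member and 0% of 15900 genes. Its values were -0.84 for Hba-a1 (SE 0.72), -0.75 for Hbb-bt (SE 0.94), -0.82 for Hbb-bs (SE 0.87) and 0.49 for Rhag (SE 0.46), and the other 5 members lay between -0.04 and 0.17. No member had an unadjusted p under 0.05 in it. Over all genes, 169 had one in edgeR and 255 in DESeq2, and limma and DESeq2 also called no gene. In nRPKM the globins were highest among Prss57-/- CMPs in replicate 2, the library with the high ribosomal protein share, whose part in these values was not tested.

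In BMMCs most of the erythroid genes were close to undetectable, Car2 was kept at a modest level, and Hbb-bt was present without Hbb-bs. Car1 had 1 read in 1 of 5 wild-type and in 1 of 5 Prss57-/- libraries and 0 in the others. Over each group, the ratio of the Car1 read rate in GMPs to that in BMMCs was 4303 in wild-type (95% exact interval 772 to 169987, for counting error only) and 3761 in Prss57-/- cells (675 to 148583). Hba-a1 had 0 reads in the 5 wild-type BMMC libraries, at least 62.9-fold lower than in GMPs when 3 reads over the group are taken as the limit, and the 95% exact interval, which also covers counting error in the GMP reads, begins lower, at 50.8. It had 3 reads in all in Prss57-/- BMMCs. Ermap had 6 reads in wild-type replicate 1, 1 in wild-type replicate 5, and 2 over the Prss57-/- libraries. Rhag had 0 to 5 reads per library in wild-type and 0 to 11 in Prss57-/- BMMCs. Members near these counts cannot be compared further at this depth.

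A total of 7 of 9 members were called lower in BMMCs than in GMPs in wild-type cells, where 24.4% of 14754 genes were called lower, and 7 of 9 in Prss57-/- cells, where 22.3% of 14929 were. The exceptions in wild-type cells were Car2 and Hbb-bt. Car2 was at 20.4, 19.4, 20.0, 17.5 and 20.0 nRPKM in wild-type BMMCs, just below the lowest wild-type GMP library at 23.7, and its log2 fold change of -0.92 (SE 0.18, adjusted p = 0.000449) missed the fold limit. In Prss57-/- cells, with BMMCs at 16.6, 20.1, 9.74, 21.5 and 16.3 nRPKM, the fold change of -1.03 (SE 0.23, adjusted p = 0.00250) was called. Without wild-type GMP replicate 3 or 4, Car2 was called in wild-type cells too, and in Prss57-/- cells its call was lost without Prss57-/- GMP replicate 1 or 4 or Prss57-/- BMMC replicate 3 or 5. Car2 had 298 to 1075 reads per BMMC library.

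Markers of other cells also differed between BMMCs and GMPs. The macrophage and dendritic cell list summed to 2719 to 4027 CPM in wild-type and 267 to 4700 in Prss57-/- BMMCs, against 72.5 to 114 in GMPs, and 10 of its 10 genes were called higher in BMMCs of either genotype. The megakaryocyte list summed to 1441 to 3081 CPM in BMMCs against 107 to 222 in GMPs, with 4 of 7 genes called higher and 3 lower in wild-type and 3 each way in Prss57-/- cells. Prss57-/- BMMC replicate 3 was the lowest BMMC library in the macrophage and dendritic cell list, in Car2 (9.74 nRPKM) and in Hbb-bt (1.75 nRPKM), and the highest in the megakaryocyte list. Replicate 4 of the Prss57-/- BMMCs was the highest in the macrophage and dendritic cell list (4700 CPM), in Car2 (21.5 nRPKM) and in Hbb-bt (9.19 nRPKM). The part of these cells in the BMMC values was not tested.

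Epor was called lower in wild-type BMMCs (log2 fold change -3.04, SE 0.38, adjusted p = 1.15e-05) and not in Prss57-/- BMMCs (-1.06, SE 0.95, adjusted p = 0.331). One library set the second value: Prss57-/- BMMC replicate 3 had 103 Epor reads, 3.42 nRPKM, where the other 9 BMMC libraries had 3 to 16. Without it the log2 fold change was -3.15 and was called. That library also stood apart in its overall profile, with 5369 reads of Gata1 against 1421 to 2058 in the remaining BMMC libraries. The part of these differences in the Epor value was not tested.

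Slc14a1 was called lower in BMMCs in wild-type (log2 fold change -3.70, SE 0.37, adjusted p = 1.33e-06) and in Prss57-/- cells (-4.15, SE 0.61, adjusted p = 0.000170), with 6 to 37 and 0 to 28 reads per library. Between genotypes within BMMCs, 3 members passed the filter on low counts. Car2 had a log2 fold change of -0.21 (SE 0.18), Hbb-bt of 0.15 (SE 0.41) and Slc14a1 of -0.61 (SE 0.68), with adjusted p = 0.9999 for each. Epor and Rhag were compared as CPM with an exact two-sided permutation test of 5 against 5 libraries, which can reach a p of 0.00794, and gave p = 0.659 and p = 0.381 in these exact tests. The other 4, Car1, Hba-a1, Hbb-bs and Ermap, had too few reads for this test to decide. It gave exact permutation p = 0.167 for Hba-a1, 0.683 for Hbb-bs and 0.722 for Ermap, and Car1 had 1 read in each genotype.

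The beta-globin genes parted in the BMMC libraries. CMP libraries held 183 to 575 unique reads of Hbb-bt and 142 to 480 of Hbb-bs, and GMP libraries 12 to 192 and 27 to 195. BMMC libraries held 65, 49, 54, 94 and 79 reads of Hbb-bt in wild-type and 36, 65, 21, 181 and 105 in Prss57-/- cells. Of Hbb-bs there was 1 read in each of 5 BMMC libraries and 0 in each of the other 5. The ranges of the genes were thus apart in BMMCs, 21 to 181 reads against 0 to 1, and overlapped in CMPs and GMPs.

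**Figure D4:**
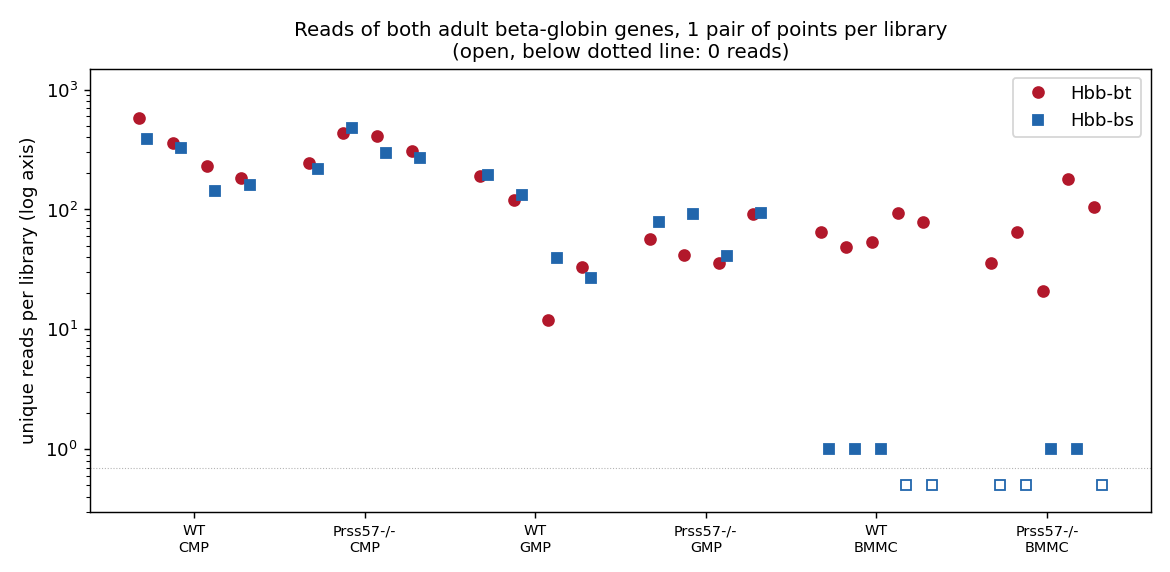
Unique reads of Hbb-bt (red circles) and Hbb-bs (blue squares) per library on a log axis, by group, with open squares below the dotted line at 0 reads. The genes share a range in CMP and in GMP libraries, and in BMMC libraries Hbb-bt lies between 21 and 181 reads while Hbb-bs is at 0 or 1.

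As a share of both genes' unique reads, Hbb-bs made up 38.2 to 52.5% in the 8 CMP libraries (45.4% of 5024 reads pooled, 95% exact binomial interval 44.0 to 46.8), 45.0 to 76.5% in the 8 GMP libraries (54.5% of 1281 reads, 51.7 to 57.2) and 0 to 4.55% in the 10 BMMC libraries (0.663% of 754 reads, 0.216 to 1.54). The split was noticed in the values, so no test was run on it. Against GMPs, Hbb-bs was called lower in BMMCs of both genotypes (adjusted p = 5.50e-05 in wild-type and 1.95e-05 in Prss57-/- cells). With 3 and 2 Hbb-bs reads over the BMMC groups, the ratio of its read rate in GMPs to that in BMMCs was 83.8 (95% exact interval 28.5 to 408) and 105 (28.7 to 868). Hbb-bt was not called in either, with a log2 fold change of 0.73 (SE 0.59, adjusted p = 0.268) and 1.40 (SE 0.55, adjusted p = 0.0416). In nRPKM, Hbb-bt was at 4.35 ± 1.15 in wild-type and 4.80 ± 3.01 in Prss57-/- BMMCs (SD, n = 5 each), against 2.45 ± 2.47 and 1.73 ± 1.12 in the GMPs (SD, n = 4 each). The 6 measured late erythroid markers summed to 0.107 to 3.25 CPM in BMMCs, against 73.0 to 121 CPM in CMPs. Hbb-bt alone was at 1.13 to 6.32 CPM in BMMCs, so the ranges overlapped. Slc4a1, Alas2 and Epb42 were at or under 3 reads in every BMMC library. Of 4 late erythroid genes tested against GMPs in wild-type cells, 1 was called higher in BMMCs and 3 lower. In Prss57-/- cells 3 were tested, with 0 called higher and 2 lower. No annotated gene overlaps Hbb-bt, and where along it the reads fell was not analysed here.

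Within a cell type the globins were set beside 4 other members to see whether libraries rich in one were rich in the other. Over the 8 GMP libraries the log2 summed CPM of the 3 globins and the mean log2 CPM of Car1, Epor, Rhag and Ermap had Pearson r = 0.776 (exact permutation p = 0.0293, adjusted over 2 relations 0.0585) and Spearman rho = 0.643 (exact permutation p = 0.0962, adjusted 0.192). Without the 2 libraries farthest from the median in globin level, wild-type GMP replicates 1 and 3, r was 0.775. Over the 8 CMP libraries r was 0.0104 (exact permutation p = 0.985, adjusted 0.985) and rho -0.0952 (exact permutation p = 0.840, adjusted 0.840). There r became 0.663 without wild-type CMP replicate 3 and Prss57-/- CMP replicate 2, so the CMP value rests on those libraries. Neither relation passed after adjustment. Car2 and Slc14a1 were not in the mean. With all 6 members that are not globins, an alternative chosen after seeing the data, r was 0.766 in GMPs (exact permutation p = 0.0325, adjusted 0.0651) and -0.063 in CMPs (exact permutation p = 0.876, adjusted 0.876). Single members differed: over the CMP libraries, Slc14a1 had r of -0.74 to -0.54 with the globins and Car2 of 0.42 to 0.58. Of the 4 in the mean, Ermap had r of -0.59 to -0.35, Epor of -0.05 to 0.21, Rhag of 0.16 to 0.42 and Car1 of 0.26 to 0.47. The CMP mean thus joined members of opposite direction. The libraries of each relation share their gate and sequencing run.

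**Figure D5:**
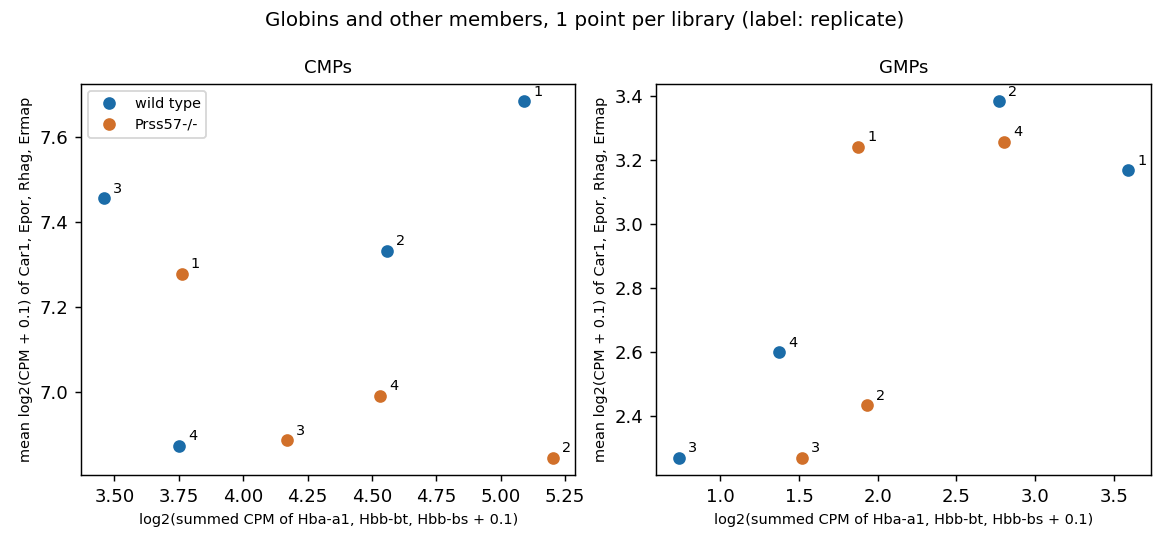
Mean log2(CPM + 0.1) of Car1, Epor, Rhag and Ermap against log2 of the summed CPM of the 3 globins + 0.1, for 8 CMP (left) and 8 GMP (right) libraries, with 1 point per library labelled by replicate number. GMP libraries with more globin tend to sit higher, and among CMPs Prss57-/- replicate 2 lies far to the right without being high.

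Genes that work beside the members were read by list. Of 19 further red cell membrane and blood group genes, 18 were tested in wild-type cells, and 11 were called lower in GMPs than in CMPs and 0 higher, with a median log2 fold change of -2.40. The water channel Aqp1 (-4.79), the Rh blood group gene Rhd (-4.23) and the pointed-end capping protein Tmod1 (-3.95) had the largest changes among them. The anion exchanger Slc4a1 (-0.84, SE 0.53) and the glucose transporter Slc2a1 (0.30, SE 0.11) were not called. In Prss57-/- cells 10 of 18 were called lower.

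Of 10 tested genes of Epo receptor signalling, 1 was called lower in wild-type GMPs, the feedback inhibitor Socs2 (-4.21, SE 0.63), and 0 of 10 in Prss57-/- cells. The kinase Jak2 was at 0.18 (SE 0.18) and the transcription factors Stat5a and Stat5b were at -0.21 (SE 0.17) and -0.04 (SE 0.15).

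Of 15 genes of iron uptake and heme synthesis, 6 were called lower and 1 higher in wild-type GMPs, and 3 and 1 in Prss57-/- GMPs. The one higher was Alas1, the general form of the first enzyme of heme synthesis (2.64, SE 0.18), while transferrin receptor 2, Tfr2 (-1.61, SE 0.13), Alad, the second enzyme (-1.56, SE 0.14), and Urod (-1.17, SE 0.15) were lower. The erythroid form Alas2 was not called (0.34, SE 0.71).

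Among 13 erythroid and megakaryocyte regulators, 6 were called lower and 1 higher in wild-type GMPs, and 5 and 1 in Prss57-/- GMPs. Klf1 (-3.70, SE 0.15), Gfi1b (-3.32, SE 0.15), Zfpm1, the GATA1 partner (-3.21, SE 0.20), and Gata1 itself (-3.06, SE 0.13) were the lowest in wild-type cells, and the myeloid factor Spi1 was the one higher (1.32, SE 0.14). Hba-a2, the near copy of Hba-a1 and the one further globin that passed the filter, had -1.83 (SE 0.54, adjusted p = 0.0236) in wild-type cells, not called, and -2.82 in Prss57-/- cells, where it was called. Of 8 other carbonic anhydrases and urea and ammonia channels tested in wild-type cells, 1 was called lower, Slc14a2, the neighbouring urea transporter gene (-3.80, SE 0.79). The gate's own markers moved as sorted, with Fcgr3 (CD16) higher in GMPs by 3.79 (SE 0.32) and Fcgr2b (CD32) by 1.93 (SE 0.12) on the log2 scale.

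Markers of other lineages moved between the same gates. The late erythroid list summed to 73.0 to 121 CPM in CMPs and 5.50 to 15.3 in GMPs, and the megakaryocyte list to 1392 to 2209 and 107 to 222 CPM, with 6 of 7 megakaryocyte genes called lower in GMPs of either genotype. Maturing neutrophil markers summed to 12.3 to 55.3 CPM in CMPs and 623 to 3489 in GMPs. Basophil markers summed to 28.1 to 65.1 CPM in CMPs and 2028 to 3150 in GMPs, with 3 of 3 called higher in both genotypes, and eosinophil markers to 0.669 to 84.4 and 1297 to 4416 CPM, also with 3 of 3. B cell markers stood at 51.4 to 72.0 CPM in CMPs and 59.0 to 80.1 in GMPs, T cell markers at 0 to 0.669 and 0 to 0.244, and macrophage and dendritic cell markers at 71.4 to 176 and 72.5 to 114. The part of these cell types in the fall of the 9 genes was not tested.

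The genes whose pattern was most like the mean of the 9 members over the 16 CMP and GMP libraries, among 14638 genes compared, were Sphk1 (Pearson r = 0.996), Rhd (0.995), Slc38a5 (0.993), Cldn13 (0.990) and Fam213a (0.990). Their log2 fold changes in wild-type cells were -4.16, -4.23, -4.71, -3.69 and -1.38. The drop between the gates enters these correlations. Within the 8 CMP libraries alone, where the gate is the same, the closest genes were Rwdd3 (r = 0.966), Acmsd (0.960), Aqp9 (0.947), Ces2g (0.944) and Nxpe2 (0.942), none of which was among the first 5. The latter are the highest of 14634 genes over only 8 libraries, and the r that unrelated genes reach there was not examined. In CMPs the mean also joins members of opposite direction, with Slc14a1 and Hbb-bs at r = -0.74. All these correlations are descriptions over libraries that share a sequencing run.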

How the data were processed

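RNA-seq of 26 libraries was analysed, 4 each of wild-type and Prss57-/- CMPs and GMPs and 5 each of wild-type and Prss57-/- BMMCs, grouped by the sample labels. Libraries were made with a stranded total RNA kit and read as single ends of 50 bases. Per the paper's methods, the authors aligned reads to mouse build 38 with GSNAP through HTSeqGenie and deposited, for each of 52636 Ensembl genes, the count of uniquely aligned reads in exons. Whether counting used the strand, and which annotation it used, is not given in the sources used here. The deposited files also hold nRPKM, which the authors made from RPKM by a size factor given in the labels. Of the gene identifiers, 52403 matched GENCODE M21, which gave the symbols and coordinates (GRCm38).

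The members and the gene lists were chosen with earlier results of these data known. All comparisons were fitted across all genes that passed filterByExpr, with edgeR 4.0.16 (TMM factors, robust quasi-likelihood test) in R 4.3.3 and Benjamini-Hochberg adjustment over all genes tested. Each comparison used its own groups, and the interaction the 16 CMP and GMP libraries. The study's own limma voom fit (limma 3.58.1) and DESeq2 1.42.0 were alternatives, with other scalings, filters and leave-one-out fits. The standard error (SE) of a log2 fold change was its size over the square root of the F statistic. The fits were tested on simulated counts. Members too low for the filter in BMMCs were compared by exact permutation in scipy 1.17.1. All 9 members are named. From each list the text names at most 4 genes called with the largest fold change, and the other list genes it names (Spi1, Hba-a2, Slc4a1, Slc2a1, Jak2, Stat5a, Stat5b and Alas2) were picked after their values were seen. One list gene that this rule would name is not reported here. Genes of like pattern are the 5 with the highest Pearson correlation with the mean of the members' standardised log2 CPM.

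Totals of 18627626 to 53264762 reads per library set the precision, and 3 reads, taken as the limit that a count of 0 allows, equal 0.0563 to 0.161 CPM. Intervals on shares are exact binomial at 95% and, like this limit, cover counting error only. In none of 7 comparisons did every same-numbered pair of libraries correlate above 0.1, so no block was used.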

Additional observations from a re-analysis of the deposited data

Results flagged for a closer look

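In 47 groups of 4 or 5 libraries, 5 member levels lay so far from the rest of their group that they exceeded Dixon's critical value, which chance alone exceeds in about 1 in 20 groups. Hbb-bt stood at 3.39 nRPKM in Prss57-/- GMP replicate 4, where the next library had 1.34. Epor stood at 3.42 nRPKM in Prss57-/- BMMC replicate 3, where the next had 0.268. Rhag stood at 19.0 nRPKM in Prss57-/- CMP replicate 2, where the next had 12.1, and in CPM it was 38.9 against 32.9 to 37.5. Slc14a1 stood at 0.440 nRPKM in wild-type BMMC replicate 1, where the next had 0.170. Ermap stood at 0.0626 nRPKM, or 6 reads, in that same library, where the next had 0.00932.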

How the results depend on the processing

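Of 1137 alternative log2 fold changes of the members, 1043 kept their direction and their side of the threshold, 18 passed it where the reported value did not, 15 missed it where the reported value passed, and 61 changed sign, all 61 in comparisons between genotypes, where nothing was called. Counts of members called stayed within 1.5 times in 146 of 148 alternatives. The exceptions came from requiring at least 10 counts in every library, which left 0 members called lower in wild-type and 1 in Prss57-/- BMMCs against GMPs, because the low members were no longer tested. The globin calls between GMPs and CMPs moved most: DESeq2 called 7 members in wild-type and 9 in Prss57-/- cells, and a replicate block, although the numbers did not meet the rule for pairing, called 9 in both. Over all genes, DESeq2 called 1181 of 14967 lower in wild-type and 1259 of 14959 in Prss57-/- cells. The block called 1011 and 645 lower, against 978 and 655 in the reported fits. Same-numbered libraries had correlations of -0.308 to 0.528 over 7 comparisons, and the labels do not say whether they share an animal. Between GMPs and CMPs these ran from -0.00107 to 0.268 in wild-type and from 0.0122 to 0.528 in Prss57-/- cells. Their means were 0.133 and 0.183, against -0.047 and -0.059 for libraries of unlike number.

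The values that changed sign were these. With limma voom, Hbb-bs was 0.075 between genotypes in GMPs and the interaction of Car2 was 0.046. With the replicate block, Hbb-bs was 0.022 in GMPs, Hbb-bt -0.043 in BMMCs and the interaction of Car2 0.049. With library size alone, the interaction was 0.15 for Car2, 0.11 for Epor and 0.038 for Slc14a1, and with genes of at least 1 count in any library it was 0.039 for Car2 and 0.023 for Epor. With all 6 members that are not globins, chosen after seeing the data, the correlation with the globins in CMPs was -0.063. The cause was not tested.

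Leaving out 1 library at a time, the genotype difference in CMPs ranged from -0.35 to 0.0082 for Car2, -0.17 to 0.51 for Hba-a1, -0.25 to 0.67 for Hbb-bt and -0.12 to 0.88 for Hbb-bs. In GMPs it ranged from -0.23 to 0.10 for Car2, -1.05 to 0.35 for Hbb-bt, -0.56 to 0.46 for Hbb-bs, -0.29 to 0.045 for Epor, -0.30 to 0.00077 for Slc14a1, -0.16 to 0.34 for Rhag and -0.31 to 0.24 for Ermap, and in BMMCs from -0.23 to 0.36 for Hbb-bt. The interaction ranged from -0.14 to 0.23 for Car1, -0.15 to 0.24 for Car2, -1.26 to 0.083 for Hbb-bt, -0.18 to 0.15 for Epor, -0.19 to 0.13 for Slc14a1 and -0.061 to 0.47 for Ermap. Depth limits the globins and the members in BMMCs, where many libraries are at or under 3 reads.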
